A study of Mus musculus with 6 samples.

Results

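The 43 genes described here encode the core machinery of the cell division cycle: cyclins and cyclin-dependent kinases, their inhibitors, the E2F and pocket proteins, replication licensing and nucleotide supply, and the mitotic regulators. Their accessible chromatin was compared between mouse neural progenitors carrying a control lentivirus and progenitors carrying an Nr6a1 lentivirus. An accessible interval was counted as belonging to a gene when its midpoint lay inside the gene body, or when the nearest end of any protein-coding gene was that gene's and lay within 100 kb. By this rule 123 of the 52223 intervals belonged to 42 of the 43 genes, and 121 of the 123 had enough fragments to be tested. The interval over the start of Mcm4 lay inside the neighbouring gene Prkdc and nearer to its end, so Mcm4 held no interval by the rule, and that interval is given separately. The genes held from 1 to 10 intervals each, with 14 genes holding a single interval and Ccnd2 holding 10.

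Accessibility was measured by ATAC-seq, which uses a transposase to cut and tag open chromatin. The 6 libraries came from mouse embryonic stem cells differentiated in culture: 5 µM CHIR99021, a GSK3 inhibitor, from day 2, 100 nM retinoic acid with 10 nM of the Smoothened agonist SAG from day 3, and SAG alone from day 5. On day 5 the cultures received virus encoding the red fluorescent protein mScarlet3 (group mScarlet, 3 libraries) or Nr6a1 joined to mScarlet3 through a 2A peptide (group Nr6a1OE, 3 libraries), and 50000 fluorescent cells per library were sorted on day 9. Nr6a1 (germ cell nuclear factor) belongs to the orphan nuclear receptors and acts in the early embryo. The virus adds Nr6a1 to cells that keep their own gene, and the promoter of the virus, the stem cell line and whether the 3 libraries of a group came from separate cultures are not stated in the labels. The p-values therefore measure the spread among these libraries alone, which may be technical. Each library held 6857763 to 8030029 fragments in intervals, and values are given as CPM, the counts scaled to library size (counts per 1000000 fragments).

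In the cell cycle, D cyclins with Cdk4 or Cdk6 phosphorylate the pocket proteins of the Rb family, which releases E2F factors to activate the genes of DNA replication. Genes of G2 and mitosis are held off in resting cells by the DREAM complex through the cell cycle genes homology region (CHR), often beside CCAAT boxes bound by NF-Y, and are induced later by B-Myb and FoxM1. In the neural tube, dividing progenitors use these genes at each round, and leaving the cycle goes with rising CDK inhibitors and neuronal differentiation.

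Promoters of 5 genes are printed to show the sequence that the 2 classes of target share and that lies in or overlaps the accessible intervals at the gene starts. RefSeq promoters (GRCm38.p6, the coordinates of mm10), each 300 bases with 250 before the gene start and 50 from it on, were at hand for 35 of the 43 genes. Printed are the 250 bases before the start, 5′ to 3′ on the strand of the gene, with capitals marking 3 motifs, each searched on both strands. The E2F core was spelled TTCCCGC in the classic form, with TTGGCGC, then also TTCGCGC and finally TTGCCGC as the other spellings. The CHR was spelled TTTGAA or, as its other form, TTCGAA, and the third motif was CCAAT. A match on the opposite strand reads, for example, as ATTGG. Mcm5 and Mcm6 encode subunits of the replicative helicase and belong to the S group, and Cdk1, Ccnb2 and Top2a encode the mitotic kinase, a B cyclin and topoisomerase II alpha.
Mcm5 (chr8:75109259-75109508, plus strand): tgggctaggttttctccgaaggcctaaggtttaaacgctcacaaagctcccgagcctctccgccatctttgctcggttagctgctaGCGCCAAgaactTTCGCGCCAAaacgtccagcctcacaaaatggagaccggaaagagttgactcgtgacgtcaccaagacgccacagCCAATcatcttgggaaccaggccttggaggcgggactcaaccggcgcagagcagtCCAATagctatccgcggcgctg
Mcm6 (chr1:128359706-128359955, minus strand): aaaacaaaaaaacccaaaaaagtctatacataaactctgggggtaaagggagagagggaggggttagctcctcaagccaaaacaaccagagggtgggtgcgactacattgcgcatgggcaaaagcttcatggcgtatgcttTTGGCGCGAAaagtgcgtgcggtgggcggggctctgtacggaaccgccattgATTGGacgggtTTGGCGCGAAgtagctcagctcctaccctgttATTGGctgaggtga
Cdk1 (chr10:69352913-69353162, minus strand): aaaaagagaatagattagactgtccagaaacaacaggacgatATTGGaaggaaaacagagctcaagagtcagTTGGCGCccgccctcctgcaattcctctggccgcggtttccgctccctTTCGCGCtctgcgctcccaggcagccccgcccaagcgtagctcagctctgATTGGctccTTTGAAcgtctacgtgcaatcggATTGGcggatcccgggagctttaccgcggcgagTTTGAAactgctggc
Ccnb2 (chr9:70421555-70421804, minus strand): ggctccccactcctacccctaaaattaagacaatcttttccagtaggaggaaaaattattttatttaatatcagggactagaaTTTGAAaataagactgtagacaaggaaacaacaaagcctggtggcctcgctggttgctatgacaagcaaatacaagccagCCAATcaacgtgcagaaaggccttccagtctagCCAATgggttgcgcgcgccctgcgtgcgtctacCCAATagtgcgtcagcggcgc
Top2a (chr11:99024190-99024439, minus strand): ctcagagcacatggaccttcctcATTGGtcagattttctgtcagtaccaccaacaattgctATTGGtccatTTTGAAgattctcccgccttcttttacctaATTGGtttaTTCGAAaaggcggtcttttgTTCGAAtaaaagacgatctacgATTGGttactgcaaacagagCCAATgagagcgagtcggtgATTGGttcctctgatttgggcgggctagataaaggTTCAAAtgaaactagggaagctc

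In the printed bases, Mcm5 held 3 E2F cores and Mcm6 held 4, some of them overlapping on opposite strands, and neither held a CHR. Top2a held 4 CHR matches and 6 CCAAT boxes and no E2F core, and Cdk1 held both kinds, with 2 E2F cores, 2 CHR and 3 CCAAT. Over the whole 300 bases, an E2F core was present in 7 of 10 S promoters, 8 of 14 G1 promoters and 3 of 11 G2 and mitosis promoters, against 9.57% of all 32851 promoters and 17.1% of those overlapping an accessible interval. A CHR was present in 9 of 11 G2 and mitosis promoters, 2 of 10 S promoters and 2 of 14 G1 promoters, against 19.2% of all promoters and 12.7% of those overlapping an interval. CCAAT was present in 10 of 11, 7 of 10 and 8 of 14 promoters of the same groups, against 37.4% and 36.8%. CHR and CCAAT occurred together in 9 of 11 G2 and mitosis promoters, against 7.53% of all promoters and 5.22% of those overlapping an interval. The E2F core TTGGCGC can overlap a CCAAT box read on the other strand, and did so at E2f8, Ccnb1 and Mcm7. The element known for Nr6a1, a direct repeat of AGGTCA with no spacer, was in 0 of the 35 promoters and in 2 of all 32851. These counts describe letters in a window and show no binding.

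No interval of the cell cycle genes passed the test for a difference between the groups. Of the 121 intervals tested, 0 opened (edgeR quasi-likelihood adjusted p under 0.05, higher in Nr6a1OE), where 0.469% of all 51637 tested intervals did, and 0 closed (lower in Nr6a1OE), where 1.26% did, or 1.73% in either direction. At these rates few calls could fall among 121 intervals, so a count of 0 lies near the background. At an unadjusted edgeR p under 0.05, 14 of the 121 member intervals were higher, a larger share than over all intervals (5.73%). Lower were 6 of the 121 (6.87% of all). DESeq2 also gave 0 calls among the members at an adjusted p under 0.05 (0.221% of all intervals). The values of the 3 libraries of each group did not overlap at 13 of the 121 that were higher (7.89% of all) and 5 of the 121 that were lower (8.73% of all). The median log2 fold change, Nr6a1OE over mScarlet, was 0.04 over the members and 0.0038 over all intervals. Above 0 lay 77 of 121 member intervals and 50.8% of all intervals. Summed CPM over all members was 4033 to 4082 in mScarlet and 4091 to 4165 in Nr6a1OE, higher without overlap. No background share was computed for such sums. By phase the sums overlapped, at 2519 to 2572 against 2558 to 2619 for G1 and 666 to 680.2 against 680 to 696.6 for G2 and mitosis. The sums of the S group, given below, overlapped too.

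At the gene starts the values were precise relative to the spread among these libraries, which may be technical. The start interval of a gene is the one that contains its start or lies nearest to it within 1 kb. It was open in every library at all 43 genes, with an mScarlet mean of 17.6 to 80.3 CPM per kb of interval and a median of 44.3, against 30.7 over all intervals at gene ends. Pcna, the sliding clamp of DNA polymerase, stood highest (80.3 ± 2.34 CPM per kb; SD, n = 3), followed by Mcm2 (74.1 ± 9.07), Mcm7 (73.8 ± 3.22) and Cdc6 (69.0 ± 2.30), and neighbours in this order overlapped within 1 SD. Lowest were Cdkn1c (17.6 ± 0.458), Bub1 (19.4 ± 1.03) and E2f2 (23.1 ± 0.303), whose ranges of 1 SD did not overlap. The median level was 59.2 CPM per kb in the S group (10 genes), 44.3 in the G1 group (19 genes) and 34.9 in the G2 and mitosis group (13 genes). The intervals differ in length, which enters a level per kb. The intervals at gene ends include finishes as well as starts. Where a gene had more than 1 candidate for its start, the interval with the highest mean count was taken. Both choices can raise the level of the 43 genes in this comparison.

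**Figure D1:**
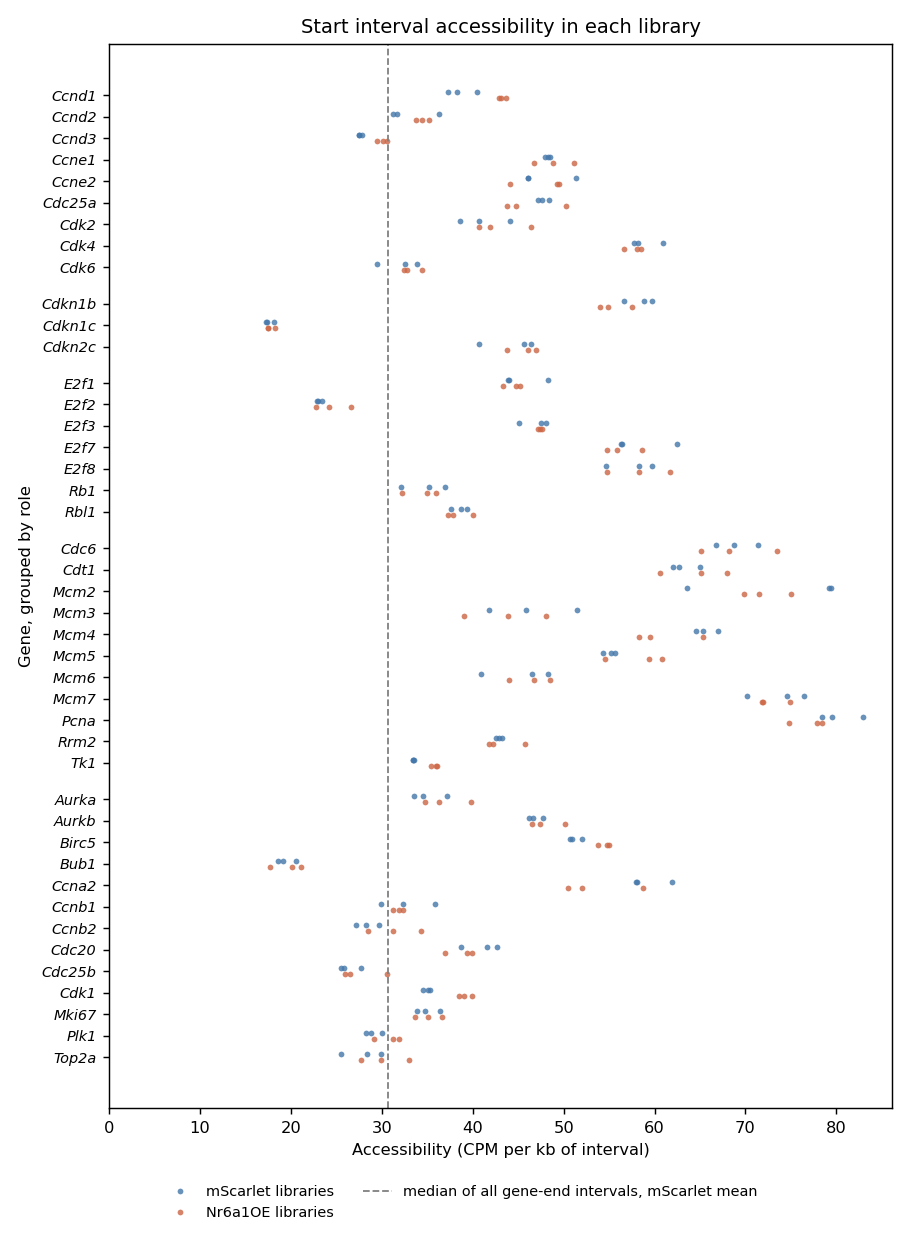
Accessibility of the start interval of each of the 43 genes (vertical axis, grouped by role) in CPM per kb of interval (horizontal axis); each point is 1 library, mScarlet in blue and Nr6a1OE in red, and the dashed line is the median of all intervals at gene ends (30.7). The points of the groups lie together at nearly every gene, and Pcna, Mcm2 and Mcm7 stand at the right.

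The fold changes at the starts were small. Over the 42 start intervals that belonged to the genes by the rule, the log2 fold change lay between -0.14 (Ccna2) and 0.16 (Cdk1). It was under 0.1 in size at 36 of them and had a median of 0.02, with 27 of the 42 above 0. All gene-end intervals had a median of -0.0041, with 48.1% above 0. Standard errors (SE) were 0.038 to 0.084. The 95% interval of the fold change lay within 0.3 of 0 at 41 of 42, Ccnb2 being the exception with an upper bound of 0.31. These bounds rest on the spread among these libraries, so they may leave out variation between cultures and do not show that the groups were equal. The libraries of the groups did not overlap at 5 start intervals, all higher in Nr6a1OE (Ccnd1, Ccnd3, Tk1, Birc5 and Cdk1), where 6.56% of all gene-end intervals were higher without overlap and 7.28% lower. None of the 5 passed the edgeR test over all intervals (adjusted p from 0.201 to 0.478), nor did any other start interval, where 0.619% of gene-end intervals passed. At an unadjusted p under 0.05, 3 start intervals were higher and 1 was lower (9.3% of gene-end intervals in either direction).

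**Figure D2:**
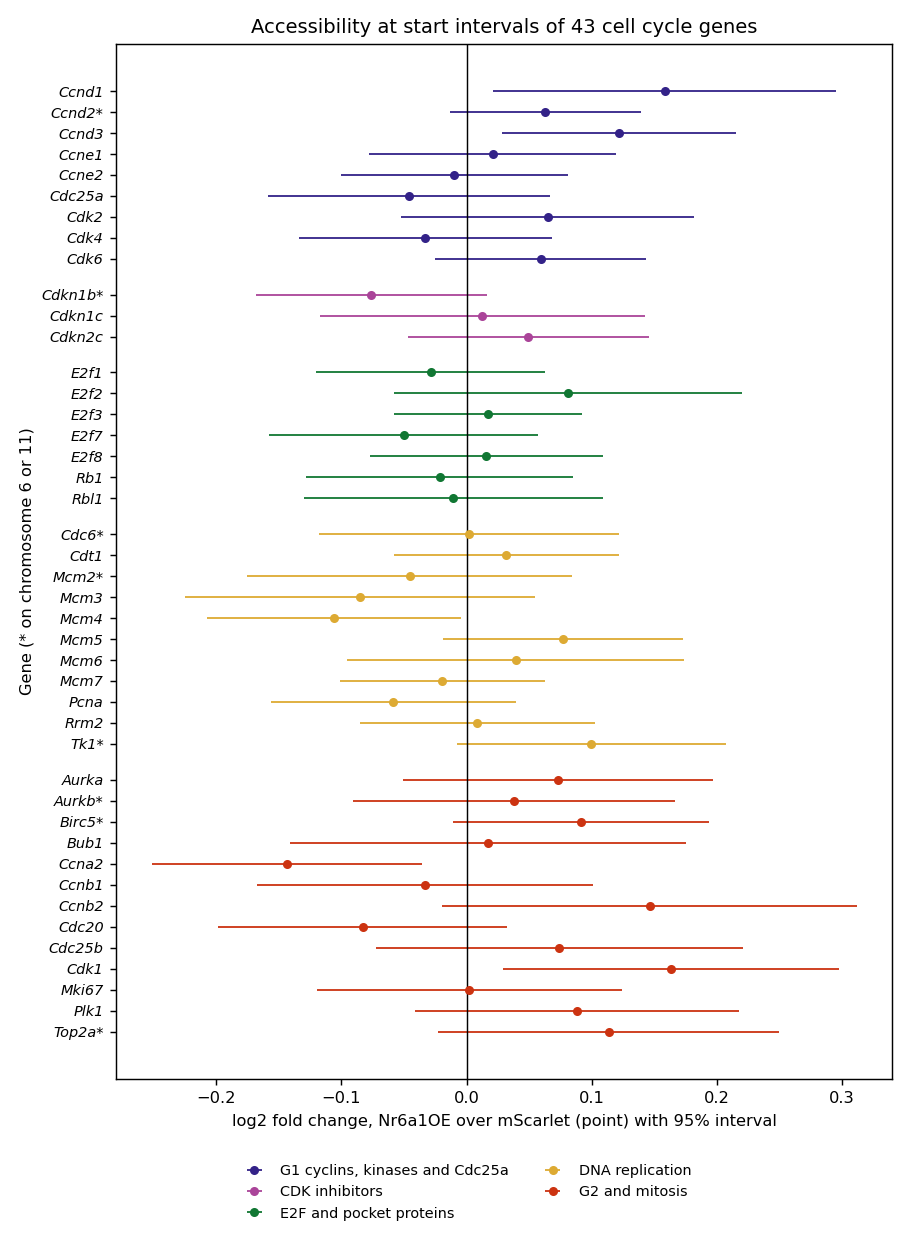
Log2 fold change, Nr6a1OE over mScarlet (horizontal axis), at the start interval of each gene (vertical axis, coloured by role, asterisk for chromosomes 6 and 11); points are edgeR estimates and bars 95% intervals. The estimates run from -0.14 at Ccna2 to 0.16 at Cdk1, and no call passed after adjustment.

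Among the G1 cyclins and kinases, the D cyclins Ccnd1, Ccnd2 and Ccnd3 held 6, 10 and 7 intervals, of which 5, 8 and 3 lay above 0. Ccnd1, the cyclin that couples growth signals to Cdk4 and Cdk6, read 38.3, 37.3 and 40.5 CPM in the mScarlet libraries and 43.2, 42.95 and 43.7 in the Nr6a1OE libraries at its start interval (chromosome 7, 144939380 to 144940380). The groups did not overlap there, and the log2 change came to 0.16 ± 0.070 (SE), with an edgeR adjusted p of 0.290. The intervals on either side, 1.9 kb inside this end of the gene and 2.6 kb outside it, also did not overlap between groups, at 19.9 ± 0.873 against 22.6 ± 1.03 CPM and at 95.2 ± 3.60 against 100.9 ± 0.364 CPM (SD, n = 3 each). Ccnd1 intervals were higher at 5 of 6, with a median of 0.17, and the exception was the weakest, at 4.52 ± 1.00 against 3.83 ± 0.495 CPM.

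Ccnd2, the D cyclin enriched in dividing neural progenitors, had a broad start interval (chromosome 6, 127149431 to 127153748) that read 136.9, 156.5 and 135.0 CPM in mScarlet and 145.6, 148.5 and 151.8 in Nr6a1OE, which overlapped. Beyond its far end, the interval at 127122066 to 127123617 read 8.21, 6.56 and 8.62 CPM in mScarlet and 11.2, 10.2 and 10.2 in Nr6a1OE (log2 fold change 0.42, SE 0.15, edgeR adjusted p = 0.119). These groups did not overlap, and the value was among the 3 highest of member intervals averaging 50 fragments or more. The interval at 127154549 to 127155077, 2.6 kb outside the gene, read 16.8, 19.5 and 14.1 CPM against 22.7, 22.5 and 17.3 (log2 fold change 0.31, SE 0.10, edgeR adjusted p = 0.0994). It overlapped between groups, and it passed when mScarlet 2 was left out (adjusted p = 0.0330) and when Nr6a1OE 3 was left out (adjusted p = 0.0201). A distant interval at 127249745 to 127252560, 99.0 kb away, read 73.0, 72.7 and 82.6 CPM against 85.8, 82.5 and 82.5 (log2 fold change 0.13, SE 0.051, edgeR adjusted p = 0.197) and passed without mScarlet 3 (adjusted p = 0.0455). All 8 tested Ccnd2 intervals lay above 0, with a median of 0.17, on a chromosome whose own median over 3177 intervals was -0.03. The 2 Ccnd2 intervals too weak to be tested went the other way, from 1.56 ± 0.460 to 0.692 ± 0.391 CPM and from 1.27 ± 0.182 to 0.745 ± 0.449 CPM.

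With the counts of all intervals of a gene added together, a fit chosen after the interval values were seen, Ccnd1 and Ccnd2 passed and no other of the 42 genes did. This fit tested 16003 genes, of which 1.42% passed in either direction and 0.656% were higher. Ccnd2 read 299.9, 329.1 and 305.3 CPM in mScarlet and 341.0, 338.3 and 333.1 in Nr6a1OE, without overlap, with a log2 fold change of 0.12, an SE of 0.028 and an edgeR adjusted p of 0.00849. Ccnd1 read 194.2, 204.0 and 206.9 CPM against 218.1, 219.9 and 222.6, also without overlap, with a log2 fold change of 0.13, an SE of 0.034 and an edgeR adjusted p of 0.0196. Summed values did not overlap between groups at 5 of the 42 genes that were higher (7.82% of all genes), Tk1, Cdk1 and Birc5 being the others, and at 2 that were lower (8.22% of all genes), Cdkn1b and Pcna. The calls were lost in DESeq2 (adjusted p = 0.572 for Ccnd2 and 0.678 for Ccnd1), without Nr6a1OE 1, Nr6a1OE 2 or mScarlet 1 (adjusted p from 0.0527 to 0.213), for Ccnd1 without Nr6a1OE 3 (0.142), for Ccnd2 without mScarlet 3 (0.112), and for both with an assumed variation of 10% between cultures (1.00). With the median fold change of each chromosome removed, both passed (adjusted p = 9.1e-05 for Ccnd2 and 0.0117 for Ccnd1).

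**Figure D3:**
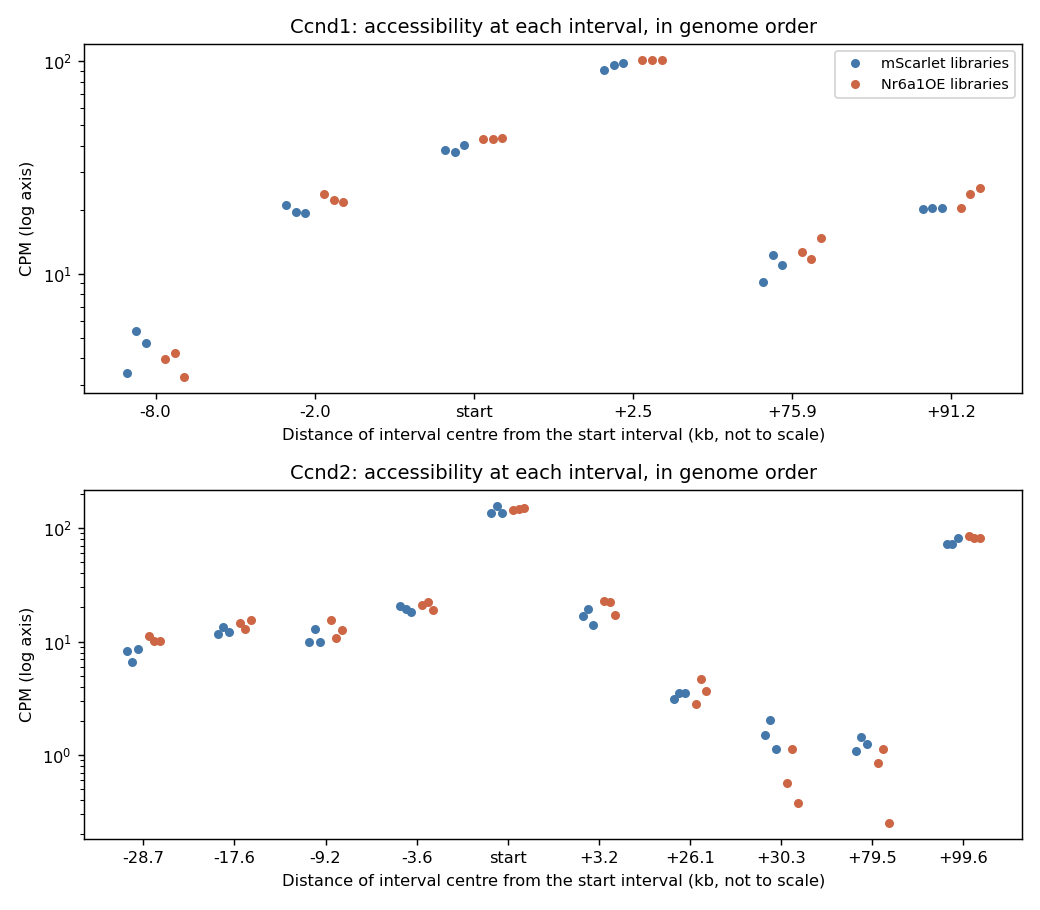
Accessibility in CPM (vertical axis, log scale) of every interval of Ccnd1 (top) and Ccnd2 (bottom), in genome order and labelled by distance from the start interval in kb (horizontal axis, not to scale); each point is 1 library. Most Nr6a1OE points sit slightly above the mScarlet points, apart from the weakest Ccnd1 interval and the 2 weakest Ccnd2 intervals.

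The third D cyclin, Ccnd3, rested on a start interval (chromosome 17, 47593165 to 47596353) nearer to the end of its neighbour Bysl, so the neighbours cannot be told apart there. It read 88.6, 87.7 and 87.7 CPM in mScarlet and 95.9, 97.5 and 94.0 in Nr6a1OE, without overlap (log2 fold change 0.12, SE 0.048, edgeR adjusted p = 0.201). Its 7 intervals had a median of -0.03, and 1 of them was lower without overlap. Cyclin E genes, which drive entry into S phase with Cdk2, overlapped between groups at the start: Ccne1 read 80.9 ± 0.525 against 81.9 ± 3.70 CPM and Ccne2 98.0 ± 6.30 against 97.5 ± 6.25 (SD, n = 3 each). The kinases Cdk2, Cdk4 and Cdk6 and the phosphatase Cdc25a had start values of 0.06, -0.03, 0.06 and -0.05 on the log2 scale, each with a 95% interval that included 0.

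CDK inhibitors, which hold cells in G1 and rise as progenitors leave the cycle, gave values in both directions. At Cdkn1b, which encodes p27, the start interval read 96.5 ± 2.64 CPM in mScarlet and 91.7 ± 2.99 in Nr6a1OE (SD, n = 3 each). An interval 2.4 kb beyond the gene (chromosome 6, 134926886 to 134928877) read 92.3, 90.6 and 92.1 CPM against 86.2, 81.0 and 85.0, lower without overlap (log2 fold change -0.12, SE 0.049, edgeR adjusted p = 0.199). Removing the median of chromosome 6 brings the summed Cdkn1b value from -0.10 to -0.06. At Cdkn1c, which encodes p57, the start was level (45.7 ± 1.19 against 46.1 ± 1.21 CPM), while an interval 5.4 kb away (chromosome 7, 143466109 to 143466738) read 8.35, 8.74 and 7.99 CPM against 11.7, 11.2 and 10.7. Those groups did not overlap, and the log2 change came to 0.42 ± 0.14 (SE), with an edgeR adjusted p of 0.108. Cdkn2c, which encodes p18, was at 85.3 ± 5.996 against 88.0 ± 3.16 CPM at its start.

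The smallest p of the whole set belonged to a weak interval near E2f3, an activating E2F, at chromosome 13, 30051138 to 30052552, 65.8 kb from the gene. It read 2.88, 4.37 and 3.12 CPM in mScarlet and 4.97, 5.37 and 6.31 in Nr6a1OE, so the groups did not overlap. The edgeR estimate was a log2 fold change of 0.70 ± 0.21 (SE), with an adjusted p of 0.0545. Without mScarlet 2, its highest control library, it passed (log2 fold change 0.89, adjusted p = 0.0292). The E2f3 start interval, in turn, was level at 150.3 ± 5.05 against 151.9 ± 0.653 CPM, with a log2 fold change of 0.02.

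At the other E2F and pocket protein genes the starts were level. E2f1 read 97.1 ± 5.34 against 95.1 ± 2.12 CPM, and the repressive E2f7 and E2f8 read 69.0 ± 4.12 against 66.7 ± 2.30 and 91.4 ± 4.14 against 92.6 ± 5.49 (SD, n = 3 each). E2f2, with 4 intervals, held 1 that was lower without overlap, from 52.6 ± 2.52 to 47.7 ± 1.26 CPM, and 1 that was higher without overlap, from 10.8 ± 1.48 to 12.7 ± 1.07 CPM, lying 12.2 and 8.6 kb from the gene. Rb1, the retinoblastoma gene, was at 69.4 ± 4.93 against 68.6 ± 3.96 CPM at its start. An interval inside Rb1 (chromosome 14, 73252723 to 73254442), nearer to the nested gene Lpar6, read 18.8, 21.1 and 22.1 CPM against 18.0, 17.2 and 18.2, lower without overlap (log2 fold change -0.22, SE 0.10, edgeR adjusted p = 0.343). Over the 24 intervals of these 7 genes, 13 lay above 0.

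**Figure D4:**
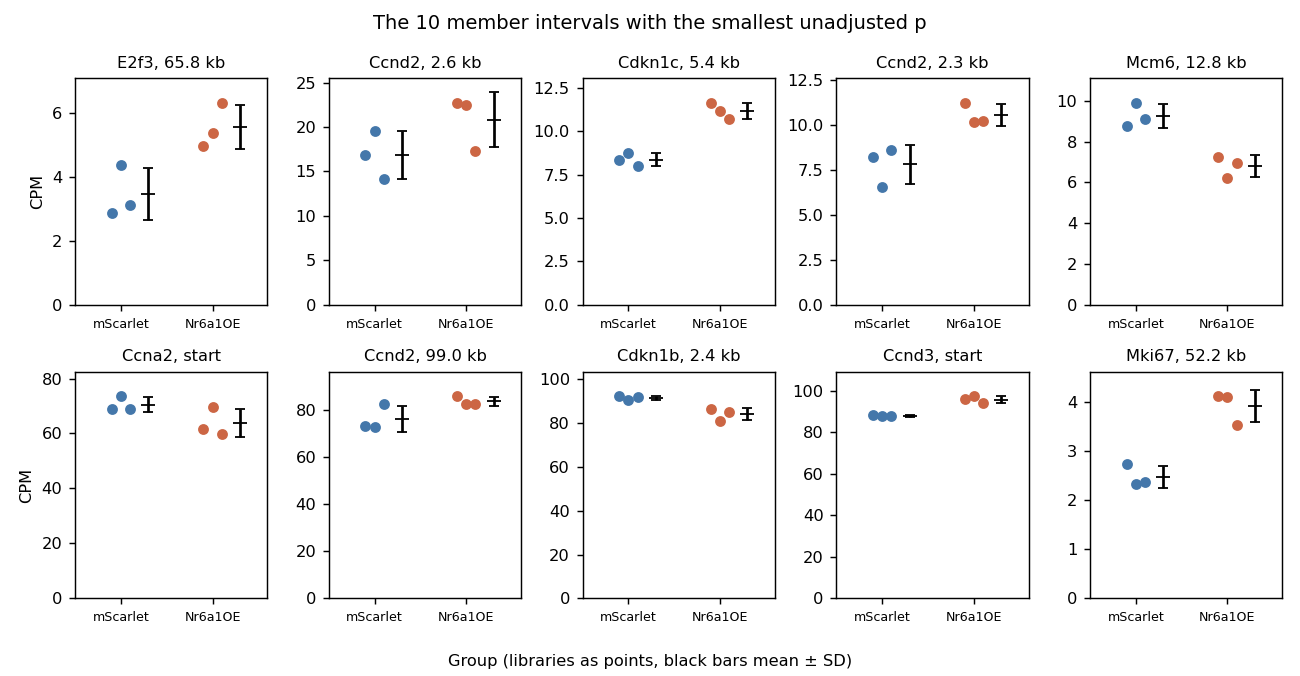
CPM (vertical axis, from 0) in each library of the 10 member intervals with the smallest unadjusted p, titled by gene and distance from the gene; points are libraries and black bars the mean ± SD of 3. The differences at the Ccna2 and Ccnd3 starts and beside Cdkn1b are small against their level, and the widest relative gaps are at the weak E2f3 and Mki67 intervals.

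Over the 25 intervals of 10 replication genes the median log2 fold change was 0.0087, with 15 above 0, and their summed CPM was 836.4 to 845.7 in mScarlet and 835.8 to 865.7 in Nr6a1OE. The median was 0.045 without mScarlet 2 and 0.032 with a distance limit of 20 kb. Licensing factors Cdc6 and Cdt1 read 53.7 ± 1.79 against 53.7 ± 3.32 and 98.8 ± 2.42 against 101.0 ± 5.78 CPM at their starts (SD, n = 3 each). The helicase genes with E2F cores printed above did not pass either (edgeR adjusted p = 0.543 and 0.878), with Mcm5 at 84.3 ± 1.00 against 89.1 ± 5.09 CPM and Mcm6 at 41.8 ± 3.52 against 42.9 ± 2.10. Mcm4, sharing its start interval with Prkdc, read 81.2, 78.2 and 79.2 CPM against 79.1, 70.6 and 72.2, with overlap (log2 fold change -0.11, SE 0.052, edgeR adjusted p = 0.363). Pcna was at 84.5 ± 2.46 against 81.1 ± 2.07 CPM, and Rrm2, a subunit of ribonucleotide reductase, at 90.2 ± 0.722 against 90.9 ± 4.50.

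Thymidine kinase gene Tk1, whose start interval lay nearer to an end of Afmid, read 65.7, 65.6 and 65.8 CPM in mScarlet and 69.6, 70.9 and 70.7 in Nr6a1OE, without overlap. Its log2 fold change of 0.10 (edgeR adjusted p = 0.451) became 0.04 once the median of chromosome 11 was removed. The only replication interval that was lower without overlap was inside Mcm6, 12.8 kb from its nearer end (chromosome 1, 128343984 to 128344831), at 8.76, 9.91 and 9.12 CPM against 7.25, 6.22 and 6.94 (log2 fold change -0.44, SE 0.16, edgeR adjusted p = 0.134). An interval 25.6 kb from Mcm3, the third lowest among intervals averaging 50 fragments or more, read 11.7 ± 1.69 against 10.6 ± 1.49 CPM and overlapped.

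Genes of G2 and mitosis had a median log2 fold change of 0.08 over 21 intervals of 13 genes, with 16 above 0. That median fell to 0.047 without Nr6a1OE 3, where the median of the G1 genes was 0.056, and to 0.053 without mScarlet 2. Cdk1, the kinase that drives mitosis, read 39.7, 40.4 and 40.6 CPM in mScarlet and 44.3, 45.9 and 44.9 in Nr6a1OE at its start (chromosome 10, 69352132 to 69353282), which did not overlap. The log2 change came to 0.16 ± 0.068 (SE), with an edgeR adjusted p of 0.253. Ccna2, the cyclin A of S phase and G2, lay at the other extreme: 68.9, 73.6 and 68.9 CPM against 61.8, 69.8 and 59.9 (chromosome 3, 36571334 to 36572521; log2 fold change -0.14, SE 0.055, edgeR adjusted p = 0.189), with 1 Nr6a1OE library among the control values. The B cyclins differed in sign, Ccnb1 at 43.4 ± 3.92 against 42.2 ± 0.788 CPM and Ccnb2 at 26.5 ± 1.15 against 29.2 ± 2.68. The mitotic kinases Plk1, Aurka, Aurkb and Bub1 gave log2 fold changes of 0.02 to 0.09, and Cdc20, the activator of the anaphase-promoting complex, at -0.08, each with a 95% interval that included 0.

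Mki67, the gene of the proliferation marker Ki-67, was level at its start, with 50.5, 54.2 and 51.8 CPM against 54.6, 52.3 and 50.1. An interval 52.2 kb away (chromosome 7, 135768530 to 135768857) read 2.74, 2.33 and 2.37 CPM against 4.12, 4.10 and 3.53, without overlap (log2 fold change 0.65, SE 0.26, edgeR adjusted p = 0.204). Birc5, which encodes survivin, read 72.8, 74.3 and 72.4 CPM against 78.3, 76.9 and 78.6 at its start, also without overlap. Top2a, whose CHR-rich promoter is printed above, read 42.7, 36.4 and 40.6 CPM against 39.6, 42.7 and 47.1 at its start, which overlapped, and 6.39 ± 0.697 against 8.10 ± 1.45 CPM at its far end (log2 fold change 0.34, SE 0.16, edgeR adjusted p = 0.367).

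Birc5, Top2a, Aurkb, Cdc6 and Tk1 lie on chromosome 11 and Ccnd2, Cdkn1b and Mcm2 on chromosome 6, where whole chromosomes stood apart: the median log2 fold change was 0.06 over 4076 intervals of chromosome 11 and -0.03 over those of chromosome 6. At gene ends of chromosome 11, 71.8% of 1035 intervals lay above 0. With members on both chromosomes left out, 97 intervals of 34 genes remained, 0 opened and 0 closed, and the median was 0.02 against 0.04 with them. The 10 intervals on chromosome 11 had a median of 0.11, which was 0.05 with the chromosome's median removed, and the 14 tested on chromosome 6 had a median of 0.11, which was 0.14 when removed. For the start intervals of the G2 and mitosis genes, the median was 0.07 over 13 genes, 0.05 over the 10 outside chromosome 11 and 0.03 with chromosome medians removed. For G1 genes the median over all intervals was 0.04, and 0.02 outside both chromosomes, and for S genes it was 0.0087 in either case.

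**Figure D5:**
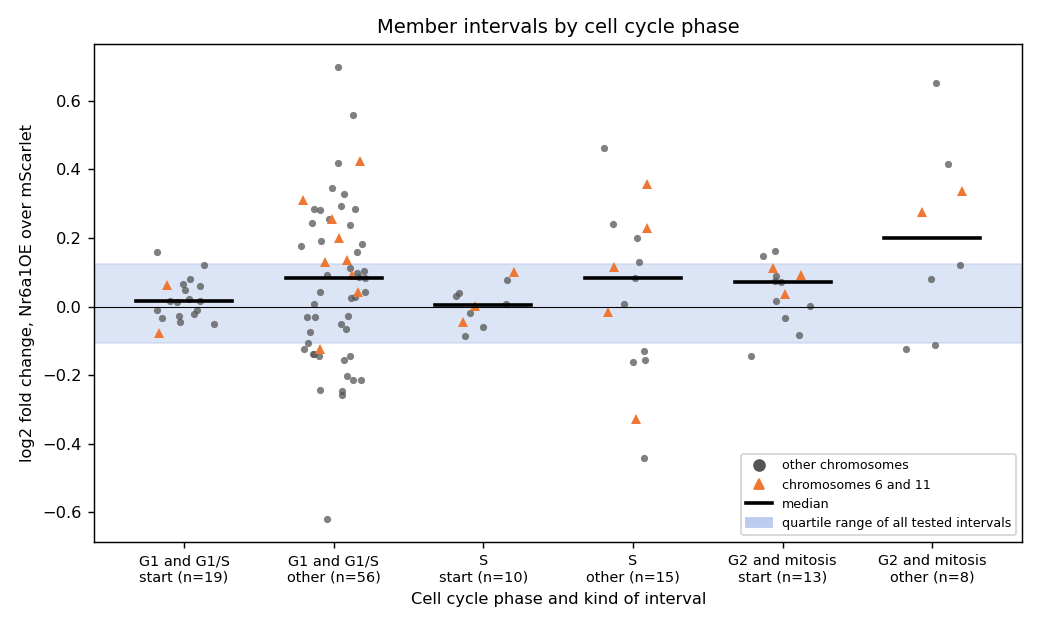
Log2 fold change, Nr6a1OE over mScarlet (vertical axis), of the 121 tested member intervals by phase, start intervals apart from the others (horizontal axis); points are intervals, triangles those on chromosomes 6 and 11, bars medians, and the band the middle quartiles of all tested intervals. Start intervals lie close to 0 in each phase, while the other intervals scatter from -0.62 to 0.70.

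The same rule was applied to 75 further cell cycle genes in 3 lists. Of their 166 intervals, 1 opened and 3 closed (0.469% and 1.26% of all intervals), with a median of -0.0025. The median was 0.0049 in the G1 and G1/S list, -0.0018 in the replication list and -0.0073 in the G2 and mitosis list (75 intervals). Summed levels of this G2 and mitosis list were 2187 to 2250 CPM in mScarlet and 2134 to 2183 in Nr6a1OE, lower without overlap. The nearest libraries of the groups read 2187 and 2183 CPM. Sums were read for 8 lists, and no background share of non-overlap was computed for such sums. Counts summed per gene were lower without overlap at 8.22% of all genes. Those of the G1 and replication lists overlapped between groups. The opened interval lay inside Ccnf, which encodes the F-box protein cyclin F, at 1.02 ± 0.380 against 3.00 ± 0.338 CPM (log2 fold change 1.52, edgeR adjusted p = 0.00222). A closed interval lay at Lig1, a DNA ligase, 36 bp from a gene end (59.2 ± 2.75 against 49.8 ± 2.21 CPM, edgeR adjusted p = 0.00717). It lay inside Zswim9 as well, so these neighbours cannot be told apart there. The other closed intervals lay 33.4 kb or more from Ect2 and Nuf2, genes of cytokinesis and the kinetochore (edgeR adjusted p = 0.0189 and 0.0134). Cks1b, Dbf4 and Hmmr held no interval. DESeq2 called 0 of the other 3 and gave the Ccnf interval no adjusted p.

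Markers of cell types were read by the same rule, since a bulk library cannot tell fewer cells of a type from less open chromatin per cell. All 10 neural progenitor markers held intervals (72, median 0.0039), of which 1 opened and 2 closed, where 0.469% of all intervals opened and 1.26% closed. The opened interval lay 92838 bp from Pax6, inside Elp4, and 1 closed interval lay 78132 bp from Sox2. Neither passed in DESeq2 (adjusted p = 0.571 and 0.654). The other closed interval lay inside Nes, at 53.8 ± 4.44 against 39.2 ± 2.80 CPM. Its log2 fold change was -0.45 (edgeR adjusted p = 9.3e-09), and it passed in DESeq2 (adjusted p = 0.00147). Post-mitotic neuron markers (69 intervals of 10 genes) had a median of -0.07 and a summed level of 858.1 to 894.2 CPM in mScarlet and 834.2 to 867.5 in Nr6a1OE. Their 1 closed interval, at Elavl4 (1.26% of all intervals closed), did not pass in DESeq2 (adjusted p = 0.910). At an unadjusted edgeR p under 0.05 in either direction were 17 of the 69, against 12.6% of all intervals. That count was 13 of 72 for neural progenitor, 5 of 37 for neural crest, 4 of 28 for mesoderm and endothelium and 1 of 12 for pluripotency markers. Neural crest markers had 1 opened of 37, 77849 bp from Ets1. Markers of mesoderm and endothelium had 1 closed of 28, inside Kdr, both to be read against the same shares of all intervals. The summed level of the mesoderm and endothelium markers was 316.7 to 324.6 CPM in mScarlet and 325.2 to 332.5 in Nr6a1OE (median log2 fold change 0.06). It was higher without overlap, the nearest libraries reading 324.6 and 325.2 CPM. No background share was computed for such sums, and counts summed per gene were higher without overlap at 7.82% of all genes. Summed levels of the neural crest and neural progenitor markers overlapped between groups. Of the pluripotency markers, Pou5f1 and Zfp42 held no interval and the other 4 genes had 12 intervals, none called, at 68.2 to 75.3 CPM summed in mScarlet and 69.3 to 72.2 in Nr6a1OE. The part of cell composition in the cell cycle values was not tested.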

How the data were processed

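The values are raw counts, as deposited by the authors: fragments in each of 52223 consensus intervals for 6 libraries. Counting used featureCounts 2.0.1 on read pairs, per the file headers, a fragment counting for every interval that it overlapped by at least 0.2 of its length, so neighbouring intervals share some fragments. The submitters' processing notes name mm10. No aligner, peak caller, treatment of duplicates or mitochondrial reads, or shift of reads for the Tn5 cut is named there or in the labels (not given in the sources used here).

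Gene bodies (21883 protein-coding genes) and promoters came from RefSeq tables of GRCm38.p6. Gene starts came from the promoter table for 35 genes; for the other 8, the gene end with the higher mean count was used. Intervals were filtered with filterByExpr (586 removed, 51637 tested), scaled by TMM and compared with edgeR 4.0.16 quasi-likelihood tests (R 4.3.3), Benjamini-Hochberg adjusted over all intervals at 0.05, with no covariate. The test was also run on counts simulated from the means and overall spread of this fit, and the outcome is not given here. Each SE is the fold change divided by the root of F, and intervals cover 95% given the spread among these libraries. Alternatives were DESeq2 1.42.0, other scalings, no filter, libraries left out, other membership rules and counts summed per gene.

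Intervals named are each gene's start interval, the 10 with the smallest p and the 3 highest and 3 lowest with a mean of at least 50 fragments; others named were chosen after their values were seen. Members and lists were chosen with earlier results of these data known. Pairs of libraries within a group differed little beyond counting error (chi-square per degree of freedom 1.046 to 1.099, against 1.265 to 1.441 between groups), and each was kept as 1 replicate.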

Additional observations from a re-analysis of the deposited data

How the results depend on the processing

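The count of cell cycle intervals closed stayed at 0 under all 20 alternatives, and the count opened was 0 apart from leaving out single libraries (0 to 2: E2f3 and Ccnd2 without mScarlet 2, Ccnd2 without mScarlet 3 or Nr6a1OE 3) and summing counts per gene (2, Ccnd1 and Ccnd2). Of 54 single intervals over 15 other fits each, 4 results gained a call, and 21 intervals, none called, changed sign in at least 1 fit. Medians stayed above 0 throughout. Over all member intervals the median was 0.052 with loess offsets, 0.035 with chromosome medians removed, 0.019 within 1 kb of a gene end, 0.054 with only nearest intervals, 0.025 without chromosomes 6 and 11 and 0.035 to 0.049 with 1 library left out. Outside chromosomes 6 and 11 it was 0.034 with loess offsets, 0.017 within 1 kb of a gene end and 0.023 to 0.035 with 1 library left out. For G1 genes it was 0.025 with a 20 kb limit, 0.016 within 1 kb, 0.023 without chromosomes 6 and 11 and 0.025 to 0.056 with 1 library left out, lowest without Nr6a1OE 2 (0.025) and Nr6a1OE 1 (0.027). With 1 library left out it was 0.011 to 0.045 for S genes (highest without mScarlet 2), 0.047 to 0.11 for G2 and mitosis genes (lowest without Nr6a1OE 3) and 0.014 to 0.042 for start intervals (highest without Nr6a1OE 2). The order of the phase medians turned in some of these: G1 lay above G2 and mitosis without Nr6a1OE 3, and S lay above G1 without mScarlet 2 and with the 20 kb limit.

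In the 3 other cell cycle lists DESeq2 called 0 opened and 0 closed, an assumed variation of 10% left 0 closed, and leaving out 1 library gave 1 to 2 opened and 0 to 2 closed. In the marker lists DESeq2 called 0 opened and 1 closed, the assumed variation 0 and 0, and leaving out 1 library gave 0 to 2 opened and 1 to 3 closed. The cause was not tested.

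Deviations of libraries with the same replicate number were not correlated (r = 0.0195, -0.0103 and -0.0148). Libraries within a group differed little beyond counting error, so these values cannot show whether the numbers pair the libraries. With the replicate number as a block, 0 member intervals opened and 0 closed, with a median of 0.043. Weak intervals limit what can be seen: the median SE was 0.16 away from gene starts and 0.056 at them.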
